A study of Mus musculus with 8 samples.

Results

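Epithelial cells of the kidney tubule are held together by tight junctions, adherens junctions and desmosomes, and a set of polarity proteins keeps the apical and basolateral sides of the cell apart. The genes described here were every symbol made of Cldn and a number (25 symbols) plus 27 listed genes for cadherins and catenins (7), tight junction partners of claudins (6), desmosome components (6) and polarity proteins (8). These 52 genes were all found among the 24063 genes of the deposited tables. The symbols Cldn25 and Cldn26 are now named Cldnd1 and Tmem114 in RefSeq, so that 23 of the 25 symbols are claudins, and Inadl is now named Patj. RNA was sequenced from mouse tubuloids, which are tubules and spheroids that grow in Matrigel from kidney fragments, with the labels giving postnatal day 7 to 10 as the age of the kidneys. All 8 libraries, the vehicle controls included, came from Pkd2fl/fl Pax8rtTA TetOCre mTmG cells. The Pax8 promoter places the doxycycline-dependent activator in renal epithelium, doxycycline (DOX) then turns on Cre, Cre removes the floxed part of Pkd2, and mTmG is a fluorescent reporter of recombination. Exposure to DOX (4 libraries) or dimethyl sulfoxide (DMSO, 4 libraries) started at day 3 and lasted 3 days, and RNA was taken at culture day 7. As the study describes the model, the abundance of PC2, the protein made from Pkd2, fell significantly in DOX-treated tubuloids but stayed detectable. Some cells of differentiated structures kept the unrecombined color of the reporter after DOX. E-cadherin-negative prestructures, which by the same description did not respond to DOX, grew beside the E-cadherin-positive tubules and spheroids. Libraries are called by the numbers in their titles, DMSO 3, 5, 15 and 20 and DOX 9, 12, 19 and 21. No label ties a library to an animal, so the p-values measure the spread between these libraries.

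Claudins span the membrane in the tight junction and set which ions and how much water pass between the cells, and each nephron segment has its own mixture. Claudin-2 makes a cation and water pore in the proximal tubule, claudin-16 and claudin-19 act in divalent cation reabsorption in the thick ascending limb, and claudin-3, claudin-4, claudin-7 and claudin-8 line the distal nephron and collecting duct. Cadherins join neighboring cells and are tied to actin by catenins, and desmosomes anchor intermediate filaments.

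Counts summed over transcripts ranged from 63922677 to 102716313 per library, and the 52 genes took 0.232% to 0.521% of them. Genes with at least 1 count numbered 13243 in DMSO 20 and 13599 in DOX 19, against 17054 to 17903 in the remaining 6 libraries. Printed log2 fold changes that changed sign or moved by more than 1.5 times without these 2 libraries are given both ways. Pkd2, the targeted gene, had 24.4 to 37.1 TPM (a level scaled for transcript length and library total) in DMSO and 19.0 to 28.2 in DOX libraries, so the groups overlapped (log2 fold change -0.31, SE 0.215; DESeq2 adjusted p = 0.999). Counts over the whole gene do not separate the floxed exons. The general kidney epithelium markers Pax8, Pax2, Krt8, Krt18 and Krt19 were present in every library, with a summed TPM of 582 to 2102 in DMSO and 672 to 1292 in DOX. Markers of mature segments differed widely between libraries. The proximal transporter gene Slc34a1 had a highest count of 1 and the collecting duct water channel gene Aqp2 a highest count of 2, while Gata3, a collecting duct transcription factor, had 7.70 to 40.0 TPM. Other segment markers reached higher levels in some libraries of both groups, with 0 to 43.7 TPM for Avpr2, the vasopressin receptor of principal cells, 0.0114 to 68.1 for Calb1, a calcium buffer of the distal tubule, and 0 to 12.0 for Umod, uromodulin of the thick ascending limb. Summed TPM in DMSO and DOX libraries was 6.26 to 23.7 and 7.48 to 12.7 for proximal markers (mostly Slc5a2, a glucose transporter gene and the only one of 6 with a mean of at least 1 TPM), 0 to 13.5 and 0 to 5.92 for thick ascending limb markers, 0.0114 to 69.0 and 4.01 to 26.6 for distal tubule markers, 9.04 to 104 and 16.4 to 33.9 for principal cell markers, and 0 to 2.16 and 0 to 0.969 for intercalated cell markers. Marker lists of other cell types were summed as well. Stromal markers summed to 301 to 3827 TPM in DMSO and 644 to 1030 in DOX, podocyte markers to 29.7 to 91.2 and 26.6 to 252, endothelial markers to 155 to 515 and 199 to 896 (mostly Plvap, Emcn and Egfl7, the only 3 of 6 with a mean of at least 1 TPM), urothelial and squamous markers to 69.5 to 208 and 74.2 to 176, and macrophage markers to 3.96 to 28.7 and 0.00680 to 10.9.

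With 1 transcript per gene, claudins listed for the distal nephron and collecting duct made up most of the claudin TPM in every tubuloid library. To compare genes, 1 transcript was kept per gene, that with most counts on average, because reads shared by isoforms were counted for each isoform. On this scale Cldn3, Cldn4, Cldn7 and Cldn8 together took 57.6% (DMSO 15) to 80.2% (DMSO 5) of the TPM of the 23 claudins. Cldn8 alone took 0.0824% to 22.9%, and Cldn3 is also found in the thick ascending limb. With TPM summed over transcripts instead, the 4 genes had 140 TPM in DMSO 15, beside 99.3 for Cldn2, Cldn12 and Cldn17. The group listed as glomerular (Cldn1, Cldn5 and Cldn6) took 7.00% to 16.9%, most of it from Cldn6 (mean 44.1 TPM, beside 12.1 for Cldn1 and 1.24 for Cldn5). Its lowest share was in DOX 21, the library with the highest sum of podocyte markers (252 TPM). The part of podocytes in this share was not tested. The group listed as proximal (Cldn2, Cldn12 and Cldn17) took 4.47% to 17.5%, with a mean of 31.6 TPM from Cldn12, which is also found outside the kidney, beside 9.15 from Cldn2. Cldn2 was at 0 in DMSO 20 and DOX 19, where the share was that of Cldn12 alone. Cldn10, which has a proximal and a thick ascending limb isoform, took 0% to 7.30%. The thick ascending limb group of Cldn14, Cldn16 and Cldn19 took at most 0.367%. The order with the distal group at the top held in all 8 libraries, whereas the order of the glomerular and proximal groups changed between libraries. The 23 claudins summed to 148 TPM in DMSO 15 and to 973 TPM in DMSO 5, with the DOX libraries between 203 and 636.

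**Figure D1:**
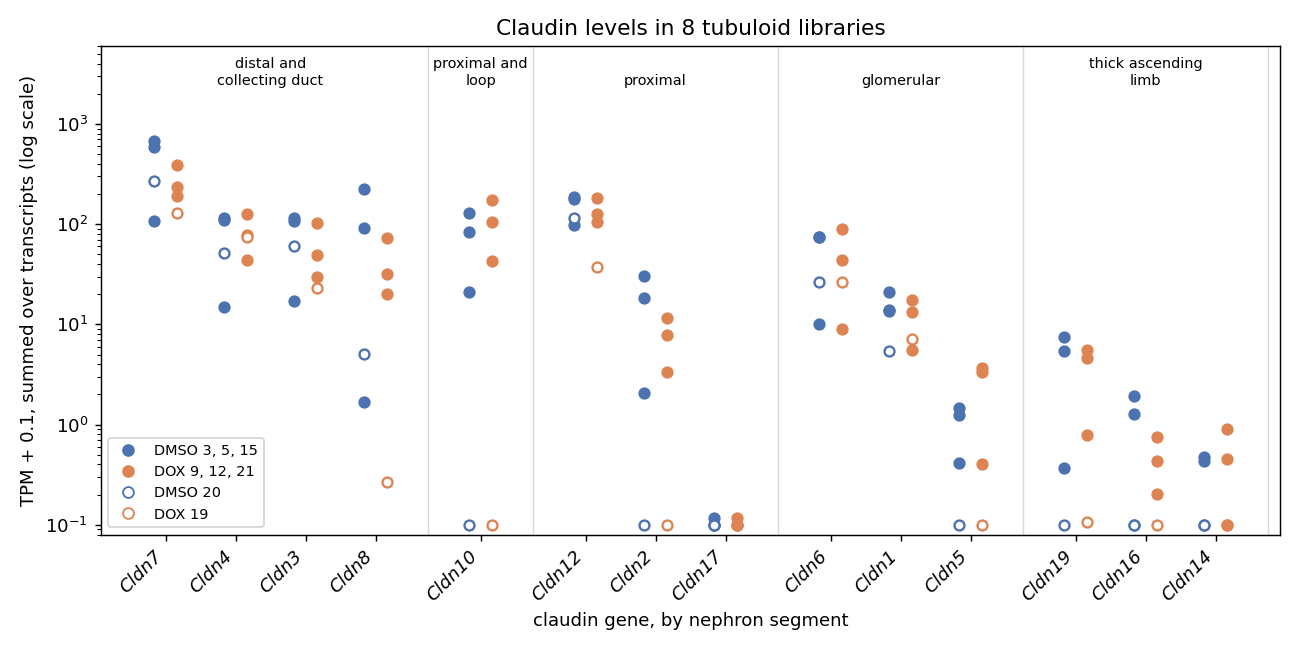
TPM plus 0.1 (log axis, summed over the transcripts of a gene) of 14 claudins grouped by nephron segment, with 1 point per library and open points for DMSO 20 and DOX 19, the libraries with few detected genes. Cldn7 lies between 107 and 675 TPM in all libraries, while Cldn2, Cldn5 and Cldn10 sit at 0 in both open points.

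Cldn7 (chromosome 11, 69964779 to 69967886) took 24.1% to 41.5% of claudin TPM, and the share of Cldn4 was 9.90% to 36.5%, above that of Cldn7 only in DOX 19. Its level summed over 2 transcripts was 585, 675, 107 and 269 TPM in DMSO 3, 5, 15 and 20 and 385, 233, 130.2 and 192 TPM in DOX 9, 12, 19 and 21. The groups overlapped, with DMSO 15 lowest of all and DMSO 3 and DMSO 5 highest (log2 fold change for DOX against DMSO -0.85, SE 0.582; DESeq2 adjusted p = 0.999). Cldn4, whose product acts as a barrier or anion channel in the collecting duct, had 110.0, 115, 14.7 and 51.5 TPM in the DMSO libraries and 125, 77.2, 74.3 and 43.7 TPM in the DOX libraries, in the same order. The lowest and the second highest values were both DMSO libraries (log2 fold change 0.09, SE 0.617; adjusted p = 0.999). Without DMSO 20 and DOX 19 the log2 fold change was -0.022. Cldn3, which like Cldn4 lies on chromosome 5 (134986214 to 134987476 and 134945123 to 134946934), had 108, 115, 17.0 and 60.8 TPM in DMSO and 103, 49.6, 23.2 and 29.6 TPM in DOX. In TPM, DMSO 15 was again lowest and DMSO 5 highest (log2 fold change -0.60, SE 0.660; adjusted p = 0.999). Cldn8, a partner of claudin-4 in the collecting duct, had 91.4, 223, 1.58 and 4.98 TPM in DMSO and 31.7, 72.4, 0.168 and 20.0 TPM in DOX. It had the widest spread of all members counted in every library, and its DOX values lay inside the DMSO range except for DOX 19 (log2 fold change -1.46, SE 1.38; adjusted p = 0.999). Summed over the 4 genes, the distal group had 637 ± 454 TPM in DMSO and 398 ± 186 TPM in DOX (SD, n = 4 each), a difference smaller than the spread between DMSO libraries.

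Several proximal, glomerular and shared claudins were absent from the counts of DMSO 20 and DOX 19 although they were counted in the other 6 libraries. Cldn10 had 82.6, 129, 21.1 and 0 TPM in DMSO 3, 5, 15 and 20 and 104, 175, 0 and 42.8 TPM in DOX 9, 12, 19 and 21. The lowest of the other 6 libraries held 1011 counts. Cldn2 (30.5, 18.1, 1.94 and 0 TPM in DMSO, 11.5, 7.80, 0 and 3.22 in DOX) and Cldn15 (9.30, 4.75, 4.83 and 0 in DMSO, 4.92, 11.2, 0 and 10.6 in DOX) were likewise at 0 in exactly these libraries, and so were Cldn5, Cldn22 and Cldn26. Among all genes with at least 10 TPM, summed over transcripts, in each of the other 6 libraries, 7 of 6922 (0.101%) were at 0 in both. Cldn10 was the 1 such gene among the 17 members at that level. It passed this limit only through the sum over its 6 transcripts, which share reads. Its transcript with most counts had 4.15 TPM in DMSO 15, so the 0.101% is not a like background for Cldn10. With a limit of 1 TPM, 230 of 12092 genes (1.90%) and 3 of 38 members were at 0 in both. The part of low gene detection in these zeros was not tested. The log2 fold change was 0.33 (SE 2.33) for Cldn10 and -1.31 (SE 2.27) for Cldn2, each with an adjusted p of 0.999 in DESeq2, and without these libraries 0.36 and -1.28 (adjusted p = 0.970 and 0.868).

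The deposited table lists 6 Cldn10 transcripts. They begin at 3 starts on chromosome 14 (GRCm38), the upstream ones at 118787908 and 118787918 and the downstream one at 118854732. In each of the 6 libraries with Cldn10 counts, the transcripts from the downstream start had more counts than those from the upstream starts, for example 1549 and 1529 against 1398 and 1375 in DOX 12 and 186 and 179 against 165 and 158 in DMSO 15. The exons after the start are shared by these transcripts and their reads were counted for each, so the differences, not the totals, bear on the starts.

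Of the remaining segment claudins, Cldn12, which is also found outside the kidney, had 188, 177, 97.4 and 114 TPM in DMSO and 183, 125, 36.9 and 104 in DOX (log2 fold change -0.45, SE 0.486, and -0.27 without DMSO 20 and DOX 19; adjusted p = 0.999 with all 8). Cldn6, a claudin of embryonic epithelia and early podocytes, had 74.5, 73.5, 10.0 and 26.1 TPM in DMSO and 89.7, 43.9, 26.5 and 8.89 in DOX, with both the highest value (DOX 9) and the lowest (DOX 21) in DOX. Cldn1, found in the parietal epithelium of the glomerulus, had 20.8, 13.4, 13.9 and 5.31 TPM in DMSO and 17.5, 13.3, 7.07 and 5.46 in DOX. Cldn5, which marks endothelium and podocytes, reached 3.54 TPM in DOX 21 and 3.24 TPM in DOX 12 and stayed at or below 1.36 TPM elsewhere. DOX 21, which also had the lowest Cldn6, had the highest sums of podocyte markers (252 TPM) and endothelial markers (896 TPM), while the vascular genes Pecam1, Kdr and Cdh5 were at 0.698, 0.394 and 0.170 TPM at most, and the part of these cells in the Cldn5 level was not tested. Cldn19 had 5.34, 7.39, 0.269 and 0 TPM in DMSO and 5.48, 4.53, 0.00622 and 0.689 in DOX, whereas Cldn16 and Cldn14 reached 1.83 and 0.801 TPM at most. Cldn17 was found as 1 count in DMSO 3 and 1 count in DOX 9. A mean TPM under 1 was found for 11 members (Cldn9, Cldn11, Cldn13, Cldn14, Cldn16, Cldn17, Cldn18, Cldn20, Cldn22, Cldn24 and Cldn26), of which Cldn18 had no count in any library. A count of 0 in a library means a level below about 3 counts there, and the limit covers counting error only.

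E-cadherin and its partners were present in every library. Cdh1 (chromosome 8, 106603350 to 106670247), which encodes E-cadherin, had 92.6, 96.9, 15.2 and 40.7 TPM in DMSO 3, 5, 15 and 20 and 83.0, 38.1, 63.0 and 26.9 TPM in DOX 9, 12, 19 and 21. The DOX values all lay inside the DMSO range (log2 fold change -0.25, SE 0.617, 95% interval -1.46 to 0.96; DESeq2 adjusted p = 0.999). The log2 fold change was -0.51 without DMSO 20 and DOX 19. Epcam, an epithelial adhesion molecule that binds claudin-7, had 389.8, 373, 46.6 and 123 TPM in DMSO and 258, 173, 103 and 90.5 in DOX, with the DOX values again inside the DMSO range (log2 fold change -0.65, SE 0.662). Cdh16, kidney-specific cadherin, had 284, 533, 17.6 and 81.3 TPM in DMSO and 185, 289, 56.2 and 53.4 in DOX, a 23.6-fold range of normalized counts over the 8 libraries (log2 fold change -0.73, SE 0.880). The catenin genes were much steadier than these transmembrane partners. Ctnna1, the alpha catenin that links the complex to actin, had 98.5, 112, 90.1 and 186 TPM in DMSO and 126, 139.9, 141 and 96.0 in DOX (log2 fold change -0.015, SE 0.264, 95% interval -0.53 to 0.50, and 0.13 without DMSO 20 and DOX 19), and Ctnnd1, a delta catenin that keeps cadherin at the surface, varied 2.32-fold in normalized counts (log2 fold change 0.12, SE 0.317, and 0.023 without them). Cdh6, a cadherin of the developing proximal tubule, had 15.0 to 56.7 TPM, and Cdh2, neural cadherin, which proximal tubules also carry, had 2.96 to 16.9 TPM.

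All 6 tight junction partners had a fitted log2 fold change below 0 in DESeq2 (F11r was at 0.034 with limma-voom), and none passed the test. Tjp1, which encodes the scaffold that joins claudins to actin, had 26.5, 21.2, 36.9 and 66.4 TPM in DMSO and 30.3, 19.4, 17.4 and 34.6 in DOX. DMSO 20 held the highest Tjp1 value, and without DMSO 20 and DOX 19 the log2 fold change went from -0.63 (SE 0.448) to -0.15. Marveld2, the tricellular junction protein tricellulin, had 27.8, 33.3, 3.32 and 30.3 TPM in DMSO and 17.6, 17.9, 0 and 6.99 in DOX (log2 fold change -1.24, SE 1.33, and -0.68 without these libraries). F11r, a junctional adhesion molecule, was the highest of the 6 with 140.2, 169, 48.6 and 53.8 TPM in DMSO and 113, 113, 83.7 and 82.4 in DOX (log2 fold change -0.14, SE 0.446, and -0.30 without these libraries). Tjp3, a relative of Tjp1, ranged from 5.66 to 51.3 TPM, Ocln (occludin) from 4.64 to 34.7 TPM and Cgn (cingulin) from 1.47 to 19.2 TPM, in each case with a DMSO library at both ends.

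Among the desmosome genes Jup was far above the rest. Jup, plakoglobin, which serves both desmosomes and adherens junctions, had a mean of 82.4 TPM over the 8 libraries, whereas Dsp (desmoplakin, the link to keratin) had 1.92, Dsg2 and Dsc2 (the desmosomal cadherins) 4.46 and 7.97, and Pkp2 and Pkp3 (plakophilins) 10.4 and 12.5, where Pkp3 was summed over 2 transcripts. Pkp2 was the steadiest of the 33 members with at least 10 counts in every library, with normalized counts of 1149.8 to 1404 in all libraries but DOX 21, which had 811 (log2 fold change -0.04, SE 0.230, 95% interval -0.49 to 0.41, and -0.11 without DMSO 20 and DOX 19). Pkp3 ranged from 3.46 to 27.5 TPM, both in DMSO (log2 fold change -0.45, SE 0.687, and -0.84 without them), and Dsg2 was at 0 in DMSO 20 and at 1.04 to 9.29 TPM elsewhere (log2 fold change 0.11, SE 1.34, and -0.53 without DMSO 20 and DOX 19). Among the polarity genes, Pard3, the scaffold of the Par complex, had 38.1, 47.0, 40.2 and 95.9 TPM in DMSO and 58.2, 53.5, 50.4 and 45.4 in DOX, summed over 4 transcripts. DMSO 20 stood alone at the top, and the other 7 libraries lay within 38.1 to 58.2 TPM (log2 fold change -0.14, SE 0.315, and 0.20 without DMSO 20 and DOX 19). Counted over 1 transcript, its mean was 12.8 TPM, below the 22.9 of Prkci and the 22.5 of Crb3. Llgl2, a basolateral determinant, ranged from 9.45 to 61.8 TPM, Inadl, a scaffold of the Crumbs complex, from 7.11 to 53.6, and Crb3, the apical Crumbs protein of epithelia, from 6.21 to 47.5. Prkci, the atypical protein kinase C of the Par complex, had 10.7 to 32.0 TPM, Pard6b, its adaptor, 7.16 to 19.4, Mpp5, which binds Crumbs, 5.42 to 33.0, and Scrib, a basolateral scaffold, 3.64 to 8.21.

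Many claudins, Epcam and the cadherins Cdh1 and Cdh16 were high or low in the same libraries, whereas Ctnna1, Ctnnd1, Pkp2 and Scrib changed little. Over the 33 members with at least 10 counts in every library, the median SD of log2(normalized count + 1) was 0.81, beside 0.47 over the 11540 genes with such counts, and the median ratio of highest to lowest library was 5.58 beside 2.67. Pkp2, Cldn25, Ctnna1, Scrib, Pard3, Ctnnd1 and Jup varied least, with SDs of 0.25 to 0.44. Cldn8, Cdh16, Cldn6, Ocln and Tjp3 varied most, with SDs of 1.14 to 3.37. DMSO 15 was the lowest library for 12 of the 33 members (36.4%, beside 12.0% of all 11540 genes), namely Cldn3, Cldn4, Cldn7, Cdh1, Cdh16, Epcam, Cgn, Dsp, Pkp3, Dsc2, Crb3 and Inadl. DMSO 3 and DMSO 5 were each the highest for 8 (24.2%, beside 7.69% and 11.4%), and DOX 21 was the lowest for 7 (21.2%, beside 5.55%). DMSO 15 also had the highest sum of stromal markers, 3827 TPM, and the lowest of kidney epithelium markers, 582 TPM, while DMSO 5 had the lowest stromal sum, 301 TPM, and 1573 TPM for kidney epithelium. DMSO 3 had the second highest stromal sum, 1056 TPM, together with the highest kidney epithelium sum, 2102 TPM. In bulk RNA, fewer epithelial cells and less of these messages per cell cannot be told apart, and the part of cell makeup in these levels was not tested.

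**Figure D2:**
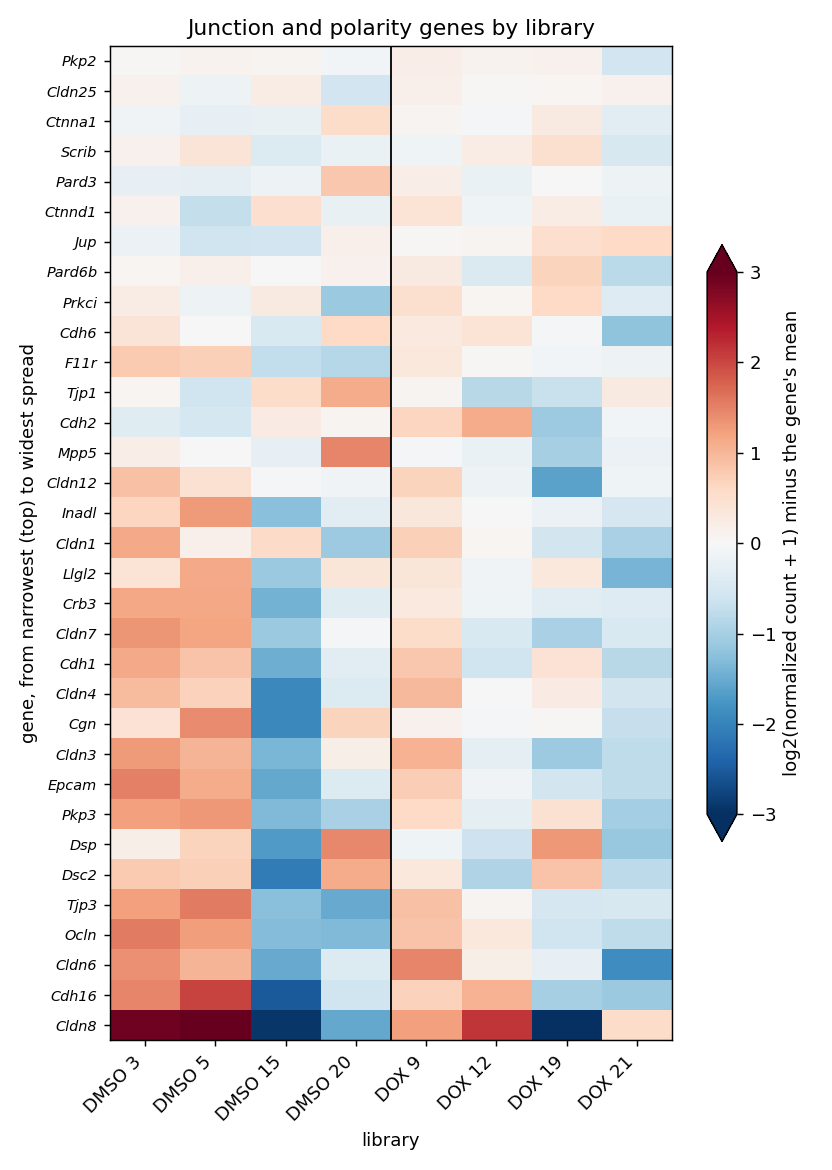
Heat map of the 33 members with at least 10 counts in every library (rows, ordered by their spread) in the 8 libraries (columns, DMSO left of the line and DOX right of it), colored by log2(normalized count + 1) minus the gene's mean. The lower rows, from Cldn7 to Cldn8, are mostly red in DMSO 3 and DMSO 5 and blue in DMSO 15, while the top rows from Pkp2 to Jup stay pale.

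To put the members on the scale of another epithelial gene, each was divided by Epcam in the same library, a scale chosen after the values were seen. For 16 of the 32 other members with at least 10 counts in every library the log2 ratio varied less than the log2 TPM, namely Cldn3, Cldn4, Cldn6, Cldn7, Cldn8, Cdh1, Cdh16, Ocln, Tjp3, Cgn, F11r, Pkp3, Dsc2, Crb3, Inadl and Llgl2. Crb3 to Epcam varied 1.78-fold, Cldn7 to Epcam 1.81-fold (from 1.26 to 2.29, with Cldn7 summed over its transcripts) and Cldn3 to Epcam 2.20-fold, where Epcam itself varied 8.29-fold in normalized counts. Cldn4 was the only member whose ratio did not overlap between the groups. Its ratio to Epcam was 0.282, 0.308, 0.315 and 0.420 in DMSO 3, 5, 15 and 20 and 0.487, 0.448, 0.721 and 0.483 in DOX 9, 12, 19 and 21. Every DOX library was therefore above every DMSO library (0.331 ± 0.0609 against 0.535 ± 0.126, SD, n = 4 each). The two-sided exact permutation p was 0.02857, the smallest that 4 against 4 allows, and after Benjamini-Hochberg adjustment over all 11539 such ratios it was 1.0. Among these 11539 genes, 0.078% had ratios that did not overlap and 0.0607% were higher in every DOX library. These shares are not a like background for Cldn4, because division by Epcam widens genes that do not follow it. For Ctnna1 the SD was 1.10 for the log2 ratio and 0.352 for log2 TPM. Without the division, 2.91% of all genes whose mean count reached 10 had normalized counts that did not overlap. The log2 difference of 0.68 for Cldn4 was 0.65 without DMSO 20 and DOX 19 and lay between 0.53 and 0.80 when each library was left out. For Cldn3 the ratios overlapped (0.277, 0.308, 0.364 and 0.496 in DMSO, 0.399, 0.288, 0.225 and 0.327 in DOX), as they did for Cldn7 and Cdh1.

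**Figure D3:**
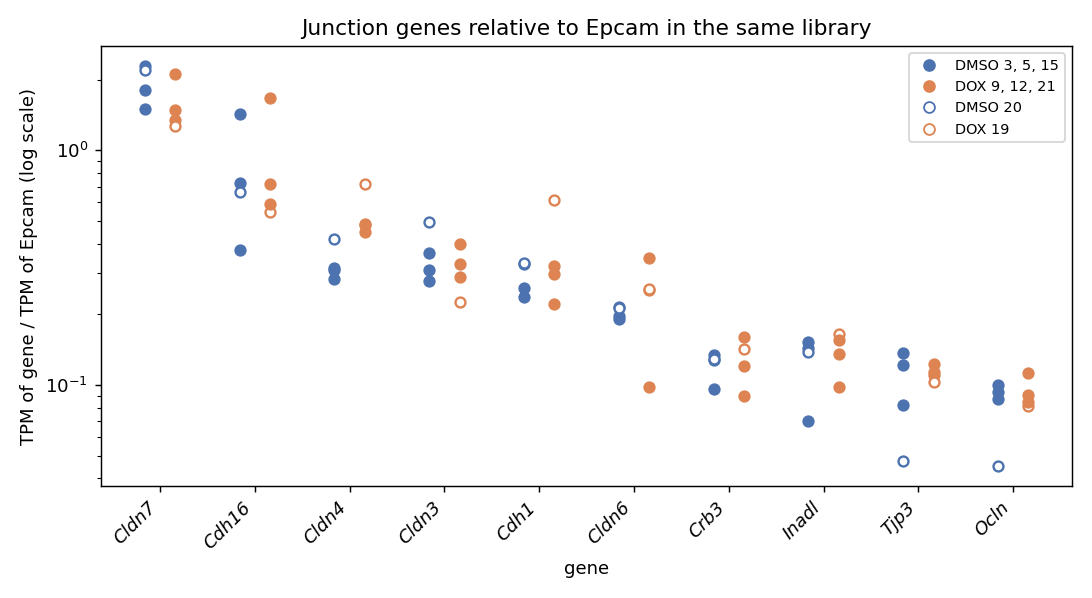
TPM of 10 members divided by the TPM of Epcam in the same library (log axis), with 1 point per library and open points for DMSO 20 and DOX 19. For Cldn4 the DOX points (0.448 to 0.721) lie above the DMSO points (0.282 to 0.420), and for each of the other 9 genes the groups overlap.

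Promoter sequences were read for the members because many of them were high or low in the same libraries. RefSeq windows on GRCm38.p6, from 250 bases before to 50 bases after a gene's start, were found for 37 of the 52. The E-box letters CAGGTG, or CACCTG on the other strand, which the repressors Snai1, Snai2, Zeb1 and Zeb2 can bind, were in the windows of 15 of these 37 genes (40.5%), beside 22.6% of 27025 genes. A gene can have several windows, and by window the letters were in 35.8% of 53 member windows, beside 20.2% of all 32851. They were found for Cldn3, Cldn4, Cldn6, Cldn7, Cldn14, Epcam, Ocln, Marveld2, Tjp3, F11r, Crb3, Inadl, Pard3, Pard6b and Dsp. The 15 members without a window, Cdh1, Cdh2, Cdh16, Cldn8 and Ctnna1 among them, were not read for either motif. The letters ACCGGT, which read the same on both strands and are the core bound by Grainyhead-like factors, were in the window of 1 of 37 (Epcam, 2.70%), beside 2.68% of all genes. A match is a description of the letters and not a measured site. The 250 bases before the start are shown 5′ to 3′ on the gene's strand for Epcam, the gene used as the scale, and for Cldn4, and for Cldn3, its neighbor, whose ratio to Epcam overlapped between the groups where that of Cldn4 did not. Capitals mark either motif. Epcam is at chr17:87635729-87635978 on the plus strand, Cldn4 at chr5:134946935-134947184 on the minus strand and Cldn3 at chr5:134985964-134986213 on the plus strand.
Epcam: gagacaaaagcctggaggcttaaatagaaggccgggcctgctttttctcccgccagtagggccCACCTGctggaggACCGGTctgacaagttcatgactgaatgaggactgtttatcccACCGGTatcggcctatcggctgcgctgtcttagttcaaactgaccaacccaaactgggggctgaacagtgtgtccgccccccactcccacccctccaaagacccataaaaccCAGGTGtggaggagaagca
Cldn4: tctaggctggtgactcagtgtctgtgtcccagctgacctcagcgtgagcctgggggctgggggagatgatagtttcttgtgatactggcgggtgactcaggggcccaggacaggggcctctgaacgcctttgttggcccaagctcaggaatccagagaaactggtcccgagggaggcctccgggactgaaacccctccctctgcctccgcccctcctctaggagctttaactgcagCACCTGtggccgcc
Cldn3: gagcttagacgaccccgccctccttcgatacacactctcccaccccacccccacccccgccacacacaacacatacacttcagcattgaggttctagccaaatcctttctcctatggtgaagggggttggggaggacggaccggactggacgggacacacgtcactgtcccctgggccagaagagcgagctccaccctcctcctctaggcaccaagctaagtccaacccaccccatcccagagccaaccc
Epcam holds 2 E-box matches, at 187 and 19 bases before the start, and 2 ACCGGT matches between them, at 174 and 131 bases. Cldn4 holds 1 E-box match 14 bases before its start and 1 more in the 50 bases after it, and Cldn3 holds none before its start and 1 after it.

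Whether the junction and polarity genes responded to DOX was then asked with all 8 libraries. None of the 46 members with an adjusted p was called by DESeq2, where a call needed an adjusted p up to 0.05 with at least a 1.5-fold change, a rule that called 0.161% of all genes (25 of 15555). Of 51 members, 2 had an unadjusted p under 0.05, beside 4.67% of all genes, and edgeR called 0 of 46 and had 1 at an unadjusted p under 0.05 (beside 0% and 3.06% of all genes). Without DMSO 20 and DOX 19, 0 members were called (0.296% of all genes) and 3 had an unadjusted p under 0.05 (6.11%), namely Cldn11, Cdh2 and Jup. No member with a mean count of at least 10 had normalized counts that did not overlap between the groups, beside 2.91% of all such genes. A fitted log2 fold change below 0 was found for 33 of the 46 members with a mean count of at least 10, beside 55% of all genes, and their median was -0.36 beside -0.057. Over all fitted members the median was -0.28 for the Cldn symbols (Cldn25 and Cldn26 included), -0.21 for cadherins and catenins, -0.57 for tight junction partners, -0.20 for desmosome genes and -0.29 for polarity genes, beside -0.075 for all genes. Without DMSO 20 and DOX 19 these medians were -0.24, -0.011, -0.63, -0.54 and -0.22, beside -0.065. Many of these genes were high or low in the same libraries, so their directions are not separate observations.

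**Figure D4:**
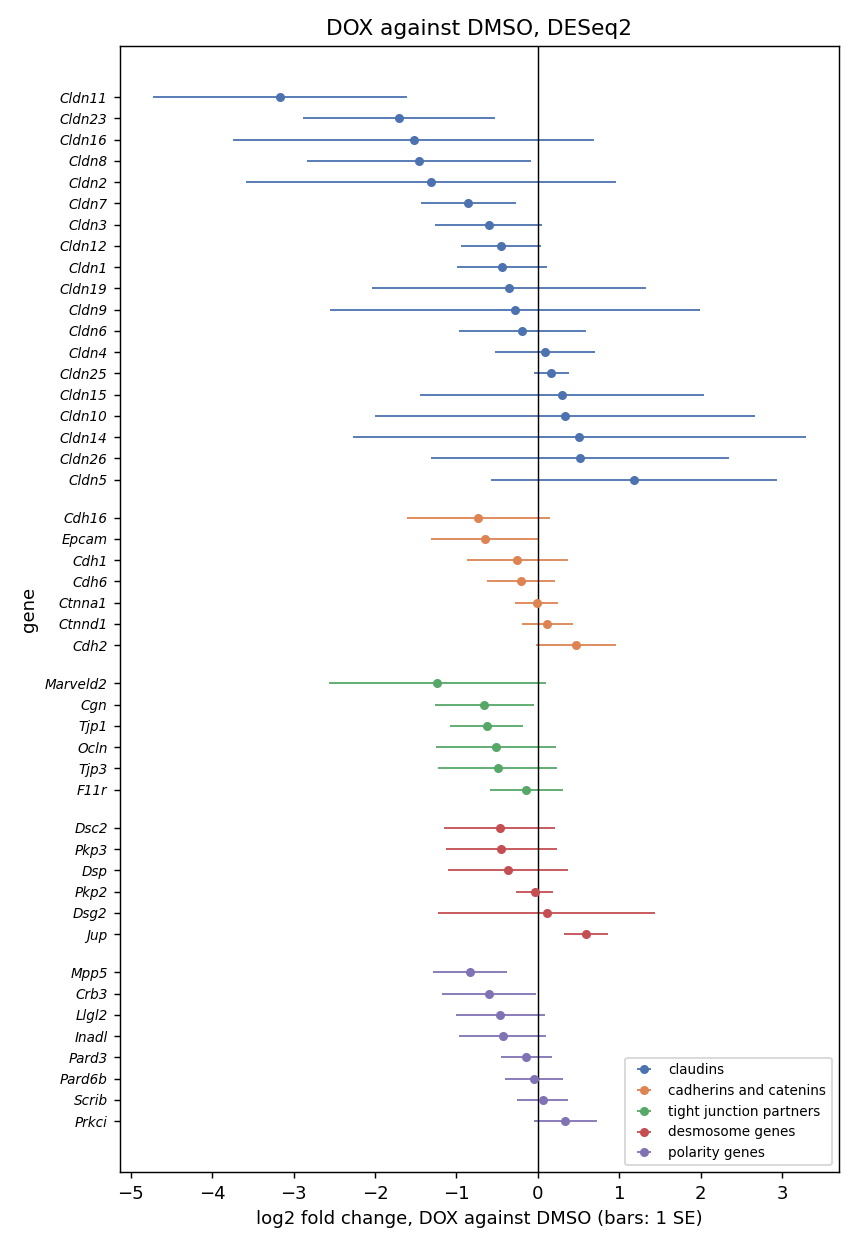
Log2 fold change of DOX against DMSO (DESeq2, bars 1 SE) for the 46 members with a mean count of at least 10, by group. All 6 tight junction partners lie left of 0 (F11r was at 0.034 with limma-voom), Jup lies at 0.59, and the bars of low or often absent claudins such as Cldn10, Cldn14 and Cldn9 span more than 2 log2 units to each side.

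The 2 members at an unadjusted p under 0.05 were Jup and Cldn11. Jup had normalized counts of 14365, 10697, 10849.6 and 18035 in DMSO 3, 5, 15 and 20 and 16687, 17094, 22880.0 and 24548 in DOX 9, 12, 19 and 21. The groups overlapped through DMSO 20, which lay above DOX 9 and DOX 12, and the mean was 13487 ± 3474 in DMSO and 20302 ± 4001 in DOX (SD, n = 4 each; log2 fold change 0.59, SE 0.265; DESeq2 unadjusted p = 0.0262, adjusted p = 0.775). The difference therefore did not pass the adjustment over all genes. Without DMSO 20 and DOX 19 the log2 fold change of Jup was 0.72 (DESeq2 adjusted p = 0.423). Cldn11, the claudin of myelin and Sertoli cells, had 24.2, 31.2, 198 and 0 normalized counts in DMSO and 7.64, 17.1, 1.13 and 2.10 in DOX (log2 fold change -3.17, SE 1.56; unadjusted p = 0.0423, adjusted p = 0.852). Most of its counts were in DMSO 15, the library with the highest stromal markers. Leaving out DMSO 15 gave 4 members at an unadjusted p under 0.05 (beside 6.59% of all genes), leaving out DMSO 3 gave 1 (4.08%), and leaving out DOX 19 or DOX 21 gave 0 (3.82% and 4.77%).

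**Figure D5:**
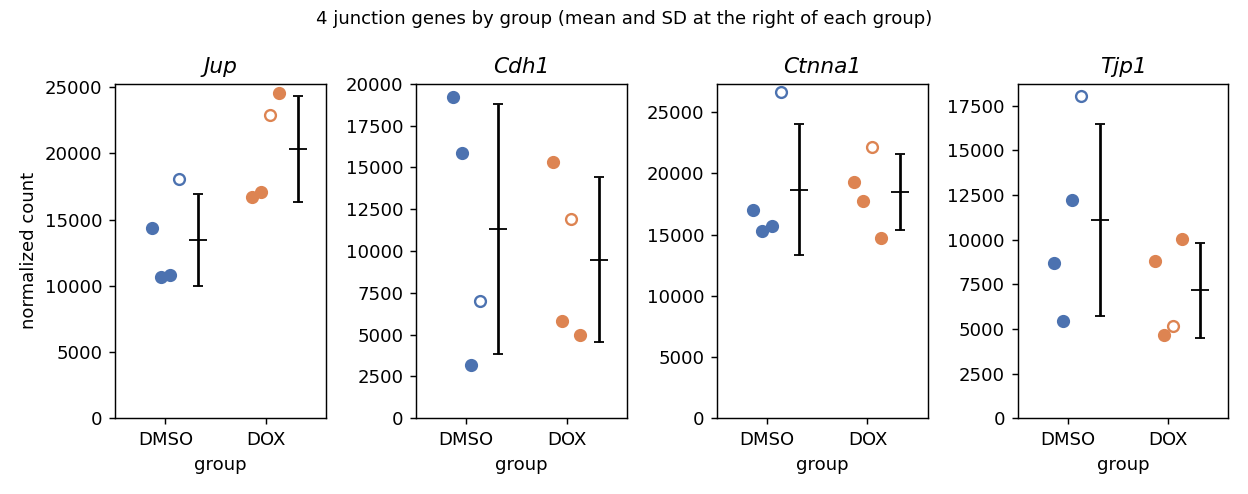
Normalized counts of Jup, Cdh1, Ctnna1 and Tjp1 by group, with 1 point per library, open points for DMSO 20 and DOX 19, and the mean and SD at the right of each group. Jup averages 13487 in DMSO and 20302 in DOX with DMSO 20 inside the DOX range, and the groups overlap for the other 3 genes as well.

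Genes of the same junctions outside the 52 were examined as 5 further lists. DESeq2 gave an adjusted p to 13 of 15 other adherens junction genes and 12 of 13 other tight junction genes. It gave one to 6 of 12 other desmosome genes and to all 16 other polarity genes. Of the genes with an adjusted p, 0 were called in either direction (0.161% of all genes). The median log2 fold changes of these lists were -0.020, -0.061, 0.53 and 0.20, beside -0.075 for all genes. Without DMSO 20 and DOX 19 the medians were 0.068, -0.17, 0.39 and 0.025, beside -0.065. With all libraries the median of the desmosome list was 0.42 over its 6 genes whose mean count reached 10. The smallest p-values of the first list were those of Ctnna2, a neural alpha catenin at no more than 2.01 TPM (log2 fold change 2.58, SE 1.34; adjusted p = 0.884), and Mllt4, afadin (-0.55, SE 0.436; adjusted p = 0.999; -0.17 without DMSO 20 and DOX 19). In the second list they were Magi1, a junction scaffold (-0.91, SE 0.471; adjusted p = 0.881; -0.57 without them), and Marveld3, a tight junction tetraspan protein (-1.05, SE 0.585; adjusted p = 0.942). Among the desmosome genes, Dsg3 and Dsc1 are epidermal cadherins, and both were at most 1.94 TPM (Dsg3 log2 fold change 5.70, SE 1.69; adjusted p = 0.190). The Dsg3 value rested on DOX 19, with 341 normalized counts against 4.98 to 33.1 in the other DOX libraries, and without DMSO 20 and DOX 19 the log2 fold change was 2.94 (adjusted p = 0.771). Pard6g, a relative of Pard6b, had 12.7, 15.2, 11.8 and 10.3 TPM in DMSO and 17.1, 28.3, 17.0 and 21.2 TPM in DOX, with every DOX library above every DMSO library (log2 fold change 0.64, SE 0.214; adjusted p = 0.338). Amot, which ties polarity proteins to actin, had normalized counts of 977, 861, 992 and 813 in DMSO 3, 5, 15 and 20 and 748, 612, 310.2 and 722 in DOX 9, 12, 19 and 21, with every DOX library below every DMSO library (log2 fold change -0.61, SE 0.328; adjusted p = 0.920). In TPM the Amot groups overlapped, with 3.43 in DMSO 20 below 3.46 in DOX 9 and 3.49 in DOX 21. Pard6g and Amot were thus 2 of 16 other polarity genes whose groups did not overlap in normalized counts, beside 2.91% of all genes whose mean count reached 10.

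Of 12 transcription factors that act on junction genes, 1 was called, with a higher level in DOX (beside 0.161% of all genes called in either direction). Grhl3, a Grainyhead-like factor of surface epithelia, had 0.114, 0.0783, 0.0304 and 0 TPM in DMSO 3, 5, 15 and 20 and 0.812, 0.415, 6.96 and 0.907 TPM in DOX 9, 12, 19 and 21. Every DOX library was above every DMSO library, though 3 of the 4 DOX values were under 1 TPM and DOX 19 lay far above them (log2 fold change 5.29, SE 1.21; DESeq2 adjusted p = 0.0140). The call was not made by edgeR (adjusted p = 0.999), nor without DOX 19 (adjusted p = 0.236) or without DMSO 5 (adjusted p = 0.0817), and without DMSO 20 and DOX 19 together the log2 fold change was 3.17 (adjusted p = 0.0238). The epithelial factor Grhl2 (0.725 to 9.73 TPM) had its highest value in DMSO 5. The repressors Snai1 (2.87 to 10.9 TPM), Zeb2 (9.77 to 21.4 TPM), Snai2 (45.9 to 129 TPM) and Zeb1 (4.09 to 11.02 TPM) were counted in every library and had log2 fold changes of 0.48 (SE 0.469), 0.20 (SE 0.352), 0.056 (SE 0.327) and 0.0026 (SE 0.417), in that order. It was 0.17 for Snai2 and 0.087 for Zeb1 without DMSO 20 and DOX 19.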

How the data were processed

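RNA was measured in 8 tubuloid libraries, 4 DOX and 4 DMSO, grouped by their titles. The authors made poly-A SMART-Seq libraries and used STAR, featureCounts and DESeq2, as named in the study's methods or the submitters' processing notes, on mm10, with versions not given in the sources used here. The deposited count gives whole reads for each RefSeq transcript, the deposited FPKM scales it by length and library total (not used for results), and the deposited TPM rescales FPKM to a fixed sum. Count and TPM were summed by symbol. Because isoform-shared reads were counted repeatedly, sums overstate reads (39252852 to 64561676 counts per library with 1 transcript per gene). Reads shared by paralogs or overlapping genes are uncertain.

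The 2 groups were compared with DESeq2 1.42.0 (Wald test, R 4.3.3) on all genes with a count (Cook's filter, independent filtering at alpha 0.1, Benjamini-Hochberg over all genes), with edgeR 4.0.16 beside it. The fitting code was run on simulated data, which checks the code and not these results. All 28 library pairs differed beyond sampling noise. Alternatives were edgeR, limma-voom (limma 3.58.1), TMM factors, count filters, Cook's filter off, 1 transcript per gene, other thresholds, low detection as a covariate, and leaving out each library or DMSO 20 and DOX 19 together. The ratio to Epcam was added after the data were seen and compared by exact permutation tests (scipy 1.17.1). Genes named one by one were Cdh1 and Tjp1, segment claudins, the 3 highest of each other group, members at an unadjusted p under 0.05, the 5 widest, low members, and of the further lists those called or the 2 smallest p. Other members are given by range, and a member outside this rule was named after its values were seen. Members and lists were chosen with earlier results of these data known. Coordinates are from RefSeq (GRCm38.p6), where all 52 symbols matched 1 gene, and transcript starts from GENCODE.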

Additional observations from a re-analysis of the deposited data

Results flagged for a closer look

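In groups of 4 libraries, 9 of the 62 gene and group combinations tested held a library whose gap to its nearest neighbor, as a share of the group's range of log2(normalized count + 1), passed Dixon's 95% critical value, which chance gives in about 1 in 20. DOX 19 was set apart for Cldn10 (gap share 0.860; no counts, against 1803 to 6131 normalized counts in the other DOX libraries), Cldn15 (0.886; none against 380.3 to 821) and Marveld2 (0.878; none against 773 to 1943). DMSO 20 was set apart for Cldn15 (0.864; none against 326 to 809.5) and, at the high end, for Pard3 (0.889; 15575 against 7332 to 7969). DMSO 15 was low for Marveld2 (0.953; 419 against 3128 to 3450.3), and DOX 21 was low for Pkp2 (0.864; 811 against 1303 to 1404). Cldn17 gave a share of 1.0 in DMSO 3 and in DOX 9, each from 1 count. Of these 9, 5 involved DMSO 20 or DOX 19, the libraries with few detected genes, whose part in the values was not tested.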

How the results depend on the processing

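No paired analysis was possible because the library numbers in the titles are not shared between DOX and DMSO. No member was called under any of the 19 settings. The number of members at an unadjusted p under 0.05 was 2 (beside 4.67% of all genes), and 1 with edgeR (3.06%), limma-voom (3.07%) and at least 10 counts in every library (6.36%) or in 4 (4.93%), and ranged from 0 to 4 when each library was left out (3.82% to 6.59%). All 102 recomputed medians moved by less than 1 SD, a wide limit that does not show that they were stable. Without DMSO 20 and DOX 19 the median of cadherins and catenins went from -0.21 to -0.011 and that of desmosome genes from -0.20 to -0.54. The summed TPM of the proximal claudins was 137, 40.7 with 1 transcript per gene (Cldn12 has 4) and 259.8 in CPM. For 40 genes, 327 of 335 fold changes under other settings kept direction and call. Log2 fold changes changed sign with limma-voom for Cldn19 (0.47) and F11r (0.034), and without DMSO 20 and DOX 19 for Cldn4 (-0.022), Pard3 (0.20) and Dsg2 (-0.53), and Grhl3 lost its call with edgeR, limma-voom and the detection covariate (adjusted p = 0.999, 0.9995 and 0.0533) and had no adjusted p without DOX 12. When each library was left out, 29 of 319 changed sign, with log2 ranges of -0.58 to 0.13 for Cdh1, -0.94 to 0.27 for Cldn6, -0.87 to 0.48 for Cldn17, -0.61 to 1.37 for Cldn14, -1.08 to 0.26 for Cldn19, -0.25 to 0.90 for Cldn10, -0.25 to 0.48 for Cldn4, -0.055 to 0.34 for Ctnnd1, -0.37 to 0.14 for F11r, -0.88 to 0.056 for Tjp3, -0.12 to 0.11 for Pkp2, -0.25 to 0.19 for Pard3, -0.72 to 0.054 for Inadl, -0.12 to 0.94 for Cldn15 and -0.31 to 0.66 for Dsg2. The cause was not tested. With 4 libraries a group, 95% intervals of the log2 fold change were -1.46 to 0.96 for Cdh1 and -4.24 to 4.90 for Cldn10.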
